A study of Mus musculus with 4 samples.

Results

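Voltage-gated sodium channels open on depolarisation and carry the fast inward current that forms the upstroke of the action potential. The genes described here are 8 that encode their subunits, the α subunits Scn1a, Scn2a, Scn3a, Scn8a and Scn9a and the β subunits Scn2b, Scn3b and Scn4b. They were chosen by name, by matching the 53465 gene identifiers of the count matrix to symbols of the GENCODE M21 annotation of the mouse genome build GRCm38. All 8 were found and all 8 were abundant enough to be tested, among 17528 tested genes. Gene expression was measured by poly(A) RNA sequencing of the lateral habenula, a small dorsal brain nucleus through which the forebrain restrains dopamine and serotonin neurons. C57BL/6 mice had been socially isolated (2 libraries) or group-housed (2 libraries), and no other treatment or allele is given in the labels. Sex, age, the length of isolation and whether a library holds 1 animal or a pool are not given. The p-values therefore measure only the spread between these libraries, which may be technical.

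A sodium channel is built around 1 α subunit, a long protein whose homologous domains form the pore, the voltage sensors and the inactivation gate. The β subunits are small single-pass proteins with an immunoglobulin-like domain that alter gating and surface delivery and also act in cell adhesion. Neurons of the lateral habenula fire in tonic or burst mode, and both modes use sodium spikes. On GRCm38 the α subunit genes Scn3a (chr2:65457118-65567627, minus strand), Scn2a (chr2:65620771-65767447, plus strand), Scn1a (chr2:66270778-66440840, minus strand) and Scn9a (chr2:66480080-66634962, minus strand) lie in a cluster on chromosome 2. Scn8a is on chromosome 15 (chr15:100869858-101045938, plus strand). The 3 β subunit genes lie on the plus strand of chromosome 9, Scn3b at chr9:40269217-40291618, Scn2b at chr9:45117782-45130070 and Scn4b at chr9:45138395-45154152, and 8324 bases separate Scn2b from Scn4b.

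The clustered α subunit genes are so alike that a short read from some stretches matches more than 1 of them. Among the GENCODE transcripts the longest run of identical bases was 188 bases between Scn1a and Scn2a and 184 between Scn3a and Scn9a. It was 143 bases between Scn3a and either Scn1a or Scn2a, and 103 and 101 between Scn9a and Scn1a or Scn2a in that order. Scn8a shared at most 55 bases with another of the 8 genes, Scn3a. Of all distinct 100-base words in a gene's transcripts, 0.876% for Scn1a, 1.03% for Scn2a, 2.22% for Scn3a and 1.44% for Scn9a also occurred in another sodium channel gene. For 50-base words the shares were 4.03% for Scn1a, 5.62% for Scn2a, 6.49% for Scn3a, 4.04% for Scn9a and 0.0374% for Scn8a. No 50-base word of Scn2b, Scn3b or Scn4b occurred in another sodium channel gene. Neither the read length nor the treatment of reads that match several genes is given, so counts of the 4 clustered genes are uncertain to an extent that was not measured. Scn9a also shares 180 exonic bases with the antisense gene Gm13629, whose level was 8.91 and 9.18 CPM in isolated libraries, against 8.48 and 9.41 CPM in group-housed libraries. CPM are counts scaled to a common effective library total. Whether the counting used the strand is not given, so Scn9a counts are uncertain in this overlap. The exons of the other 7 subunit genes were free of such overlaps in the annotation.

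All 8 genes were expressed in every library, and their order was the same in each. Levels are compared between genes as CPM per kilobase of exon. Scn2b, which encodes the disulfide-linked β2 subunit, was the most abundant, at 83.1 and 67.6 CPM per kilobase in isolated libraries, against 74.8 and 70.2 in group-housed libraries, rank 463 of the 17528 tested genes by mean level. Scn3b (mean 28.7 CPM per kilobase over the 4 libraries), Scn2a (21.8), Scn1a (18.7), Scn8a (13.6), Scn3a (11.2) and Scn4b (7.64) followed in that order. Scn9a was the least abundant, at 3.51 and 3.75 CPM per kilobase in isolated libraries, against 3.08 and 3.73 in group-housed libraries, rank 9827. For each of the 7 pairs of neighbours in this order the lowest library of the higher gene lay above the highest library of the lower gene. The narrowest gap was between Scn8a, with a lowest library of 12.9 CPM per kilobase, and Scn3a, with a highest of 12.2, and the mean levels of these genes differed by a factor of 1.21. The order and the separation of all 7 pairs also held with the longest annotated transcript as the length in place of all exons. The lowest count behind any of these values was 775 and the highest 10159.

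**Figure D1:**
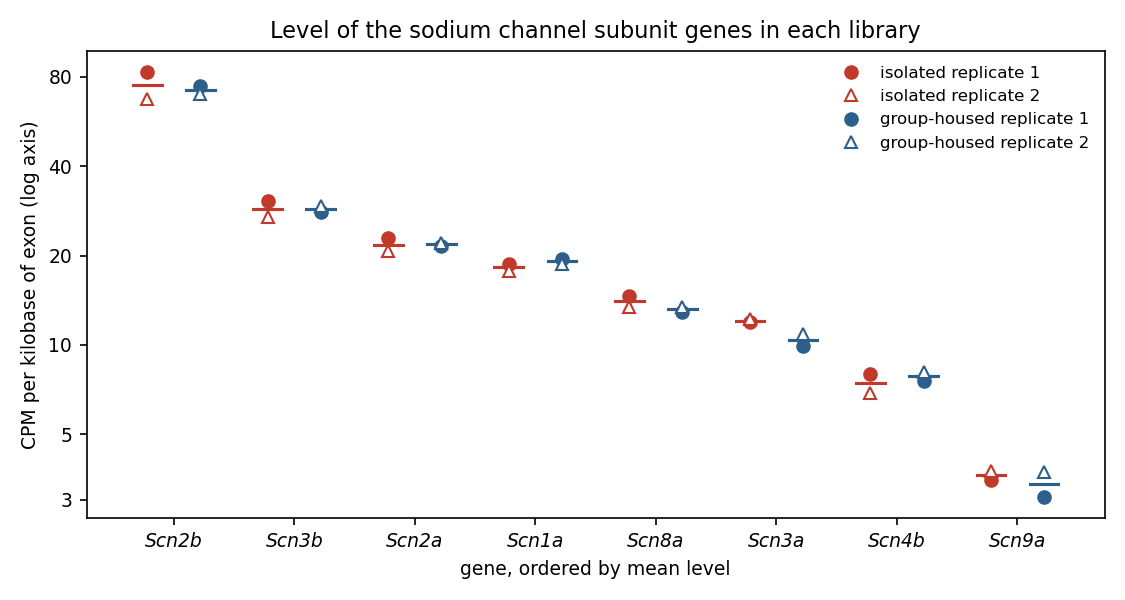
Level of the 8 genes as CPM per kilobase of exon on a log axis, with isolated libraries in red to the left of group-housed libraries in blue. Circles are replicate 1, open triangles replicate 2 and bars the group means. Scn2b stands highest, at 67.6 to 83.1, and Scn9a lowest, at 3.08 to 3.75, and neighbouring genes do not overlap.

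No subunit gene passed the test between isolated and group-housed libraries. The edgeR quasi-likelihood test with Benjamini-Hochberg adjustment over all tested genes called 0 of the 8, where 2 of 17528 genes were called in all, 0.0114%. The 2 called genes were Slc5a7 and Chrnb3, both higher in isolated libraries. Both are among the 10 medial habenula markers described below, and the part of tissue makeup in these calls was not tested. DESeq2, edgeR's exact test and limma-voom also called 0 of the 8, against 0.297%, 0.468% and 0.0114% of all tested genes. At an unadjusted p below 0.05 the quasi-likelihood test gave 1 subunit gene, Scn3a, which was higher, where 5.09% of all tested genes met that threshold and 2.83% met it and were higher. Isolated over group-housed, 5 of the 8 genes had a positive and 3 a negative log2 fold change, from -0.079 to 0.21, and their median was 0.031, where the median of all tested genes was 0.0033. The groups did not overlap for 2 of the 8 genes. In 1 of them, Scn3a, the isolated pair was the higher (17.4% of all tested genes), and in the other, Scn1a, it was the lower (16.3% of all tested genes). Of 8 genes, 1 in either direction is close to these shares. In such tissue fewer cells of a type and less RNA per cell cannot be told apart.

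**Figure D2:**
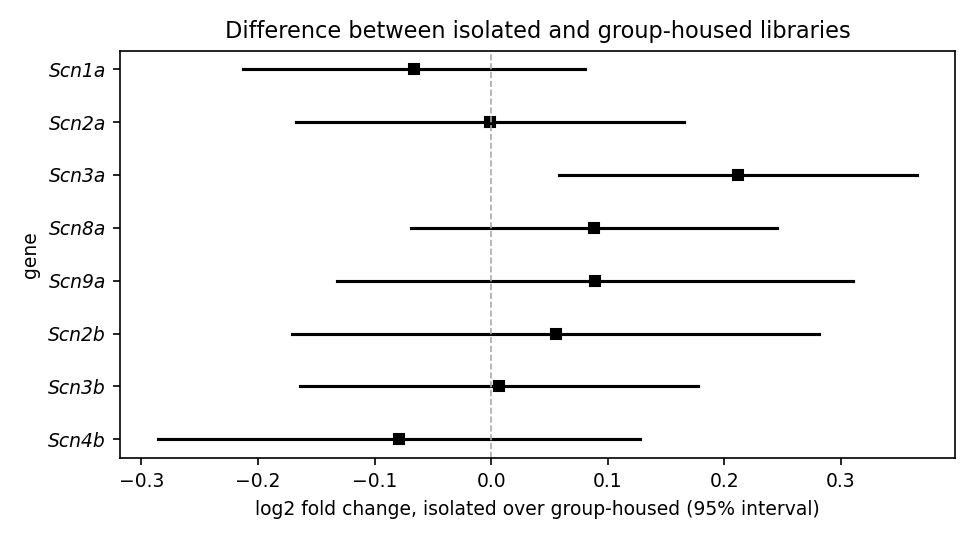
Log2 fold change of isolated over group-housed libraries with its 95% interval for the 8 subunit genes. The interval of Scn3a (0.058 to 0.37) excludes 0 before adjustment, and the intervals of the other 7 subunit genes include it.

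Scn3a encodes Nav1.3, an α subunit that in rodents is best known from the embryonic and early postnatal brain. Its level was 148 and 152 CPM in isolated libraries, against 124 and 136 CPM in group-housed libraries. Both isolated libraries were higher than both group-housed ones, and replicate 1 of the group-housed libraries was the lowest. The means were 150 ± 2.75 CPM in isolated and 130 ± 8.49 CPM in group-housed libraries (SD, n = 2 each). The log2 fold change was 0.21 (SE 0.067, 95% interval 0.058 to 0.37), a difference of 15.8%, with an edgeR adjusted p = 0.788. Without group-housed replicate 1 the log2 fold change was 0.15, short of the unadjusted threshold of 0.05, in a fit with 1 residual degree of freedom that assumes the lone group-housed library to vary like the isolated ones. Of 10 medial habenula markers 9 lay higher in both isolated libraries than in both group-housed ones, where 17.4% of all tested genes did. The 10 markers summed to 1643 and 1661 CPM in isolated, against 1297 and 1193 CPM in group-housed libraries, and none of them was at 0. Their part in the difference of Scn3a was not tested.

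Scn1a encodes Nav1.1, the α subunit best known from fast-spiking inhibitory neurons, where its loss causes epilepsy. Its level was 208 and 198 CPM in isolated libraries, against 217 and 209 CPM in group-housed libraries. The isolated pair was the lower one, by a gap between the nearest libraries that was smaller than the spread within either group. The log2 fold change was -0.067 (SE 0.064, 95% interval -0.21 to 0.080). Markers of inhibitory neurons were detected in every library. Gad2, the gene of a GABA-synthesising enzyme, measured 59.7 and 39.2 CPM in isolated, against 48.8 and 45.5 CPM in group-housed libraries. Pvalb, which marks fast-spiking neurons, measured 17.0 and 19.7 CPM in isolated, against 21.9 and 19.5 CPM in group-housed libraries. Another GABA enzyme gene, Gad1, measured 23.8 and 12.7 CPM in isolated, against 13.0 and 14.4 CPM in group-housed libraries. The other 2 of these 5 markers, the vesicular GABA transporter gene Slc32a1 and the neuropeptide gene Sst, were named after their values were seen. Slc32a1 measured 9.22 and 2.15 CPM in isolated, against 4.34 and 3.58 CPM in group-housed libraries. Sst measured 16.9 and 20.9 CPM in isolated, against 10.6 and 14.7 CPM in group-housed libraries, the one marker of the 5 whose groups did not overlap (edgeR adjusted p = 0.729). Of the 5 log2 fold changes 4 were positive, where that of Scn1a was negative, and the summed level was 127 and 94.7 CPM in isolated, against 98.7 and 97.6 CPM in group-housed libraries. The part of inhibitory neurons in the Scn1a level was not tested.

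Scn2a encodes Nav1.2, the α subunit of excitatory neurons and unmyelinated axons. It was the most abundant α subunit gene, with 292 and 263 CPM in isolated libraries, against 273 and 281 CPM in group-housed libraries. The isolated libraries lay on either side of the group-housed ones, and the group means were both 277 CPM (SD 20.2 in isolated and 5.59 in group-housed libraries, n = 2 each). The 95% interval of the log2 fold change was -0.17 to 0.17. Scn8a encodes Nav1.6, the α subunit of mature axon initial segments and nodes of Ranvier. Its level was 230 and 212 CPM in isolated libraries, against 203 and 212 CPM in group-housed libraries. The groups overlapped, and the log2 fold change was 0.088 (SE 0.069, 95% interval -0.069 to 0.25).

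Scn9a encodes Nav1.7, known above all from sensory and sympathetic neurons. Its level was 44.9 and 47.9 CPM in isolated libraries, against 39.3 and 47.7 CPM in group-housed libraries. A single library, group-housed replicate 1, lay below the other 3, and the coefficient of variation of the group-housed pair (13.5%) was the widest of that pair among the 8 genes. The log2 fold change was 0.089 (SE 0.097, 95% interval -0.13 to 0.31). The counting error of the shallowest library was 3.52% for this gene.

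The β subunit genes varied more between the isolated libraries than between the groups. Scn2b measured 387 and 315 CPM in isolated libraries, against 348 and 327 CPM in group-housed libraries. Scn3b, whose β3 subunit binds the α subunit non-covalently, measured 167 and 147 CPM in isolated libraries, against 153 and 160 CPM in group-housed libraries. For both genes isolated replicate 1 was the highest and isolated replicate 2 the lowest of the 4 libraries. Scn4b encodes β4, whose cytoplasmic tail can block the open pore and so support resurgent sodium current. Its level was 39.8 and 34.3 CPM in isolated libraries, against 37.8 and 40.4 CPM in group-housed libraries, again with isolated replicate 2 lowest. The log2 fold changes were 0.055 (95% interval -0.17 to 0.28) for Scn2b, 0.0065 (-0.16 to 0.18) for Scn3b and -0.079 (-0.29 to 0.13) for Scn4b. The coefficients of variation were 14.6%, 8.79% and 10.4% within the isolated pair, against 4.47%, 3.13% and 4.72% within the group-housed pair, for Scn2b, Scn3b and Scn4b in that order.

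Of the 8 genes 6 were higher in isolated replicate 1 than in isolated replicate 2, the exceptions being Scn3a and Scn9a. All 12 pan-neuronal markers were also higher in isolated replicate 1 than in isolated replicate 2, with summed levels of 6025 and 5489 CPM in the isolated and 6085 and 5776 CPM in the group-housed libraries. Of all tested genes 49.8% were higher in isolated replicate 1. The part of neuronal content in the spread of the subunit genes was not tested. The 7 genes other than Scn3a had edgeR adjusted p-values of 0.9998 or more. The outermost bounds of their 95% intervals, before adjustment, were differences of -18.0% (Scn4b) and 24.0% (Scn9a) in isolated over group-housed libraries.

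**Figure D3:**
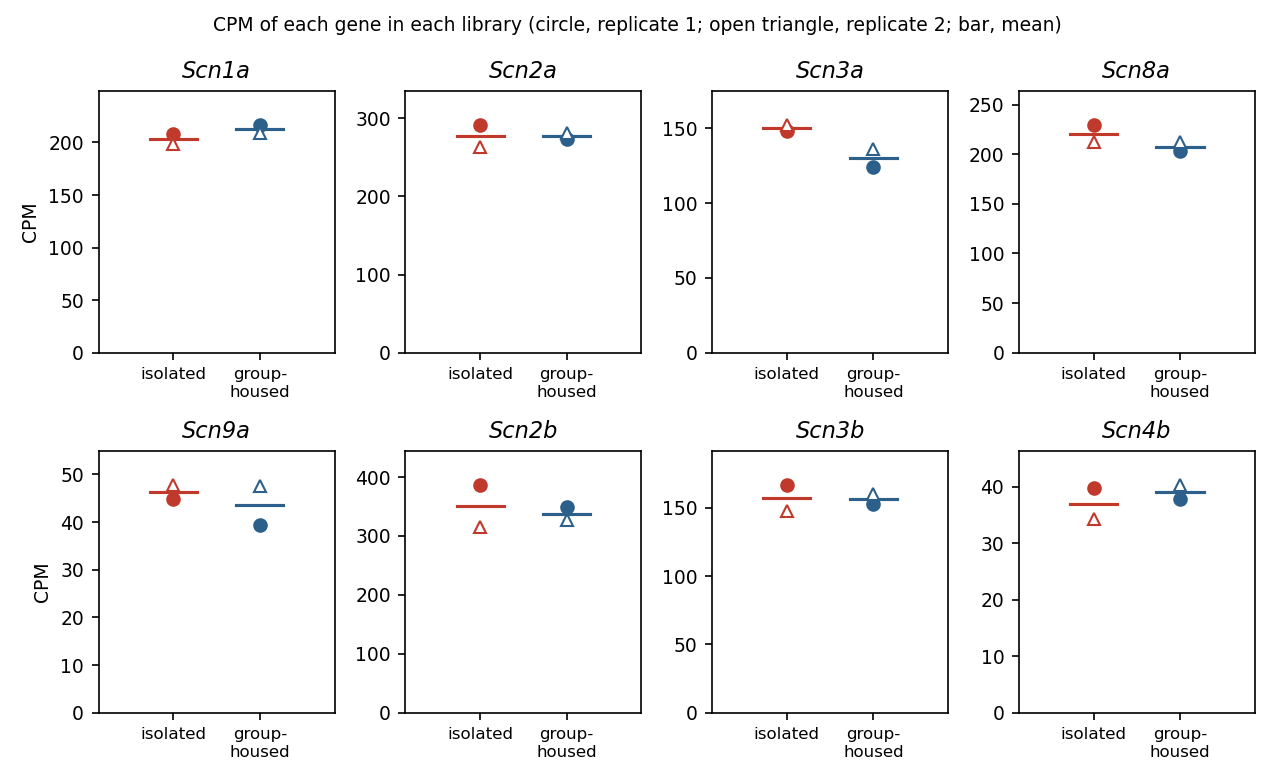
CPM of each subunit gene by library, isolated to the left of group-housed, with axes from 0. Scn3a is the only panel in which both isolated points (148 and 152) lie above both group-housed points (124 and 136), and in the Scn2b panel the isolated libraries (387 and 315) enclose the group-housed ones.

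The mix of α subunits was compared next, because a share within a library does not depend on the library's total. Each α subunit's CPM per kilobase was divided by the sum over the 5. Scn2a held 32.0% and 30.4% in isolated libraries, against 32.1% and 32.1% in group-housed libraries. Scn1a held 26.1% and 26.2% in isolated libraries, against 29.1% and 27.2% in group-housed libraries. Scn3a held 16.6% and 18.0% in isolated libraries, against 14.9% and 15.8% in group-housed libraries. Scn3a thus took a larger share and Scn1a a smaller share in both isolated libraries, with differences of the group means of 1.99 percentage points for Scn3a and -1.99 for Scn1a. Without group-housed replicate 1 the difference for Scn1a was -1.03 percentage points, and without isolated replicate 2 that for Scn3a was 1.31. Scn8a held 20.4% and 19.8% in isolated libraries, against 19.3% and 19.5% in group-housed libraries. Scn9a held 4.91% and 5.52% in isolated libraries, against 4.61% and 5.41% in group-housed libraries, and only for this gene did the groups overlap. For Scn2a they were barely apart, with the nearest libraries at 32.00% (isolated) and 32.06% (group-housed). By CPM, 17.4% of all tested genes lay higher and 16.3% lower in both isolated libraries. No such figure was computed for shares. With 2 libraries against 2, the exact 2-sided permutation test cannot give a p below 0.333, and it gave 0.333 for each of these shares except that of Scn9a (0.667). These 5 shares sum to 100 in each library and are not independent of each other.

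**Figure D4:**
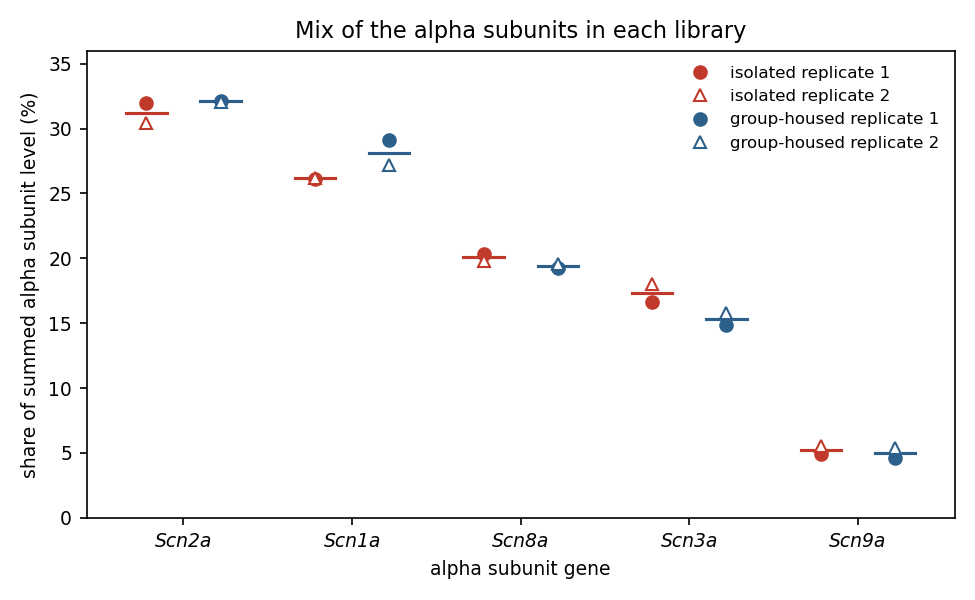
Share of each α subunit gene in the summed α subunit level per kilobase, isolated in red to the left of group-housed in blue. The shares run from about 32% for Scn2a to about 5% for Scn9a, and both isolated points lie below the group-housed ones for Scn1a and above them for Scn3a.

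Ratios of pairs of genes within a library were also compared, with CPM per kilobase on both sides. The log2 ratio of Scn3a over Scn2a was -0.94 and -0.76 in isolated libraries, against -1.11 and -1.02 in group-housed libraries, a difference of 0.22 (exact permutation p = 0.333). The log2 ratio of Scn8a over Scn1a was -0.36 and -0.40 in isolated libraries, against -0.59 and -0.48 in group-housed libraries, a difference of 0.15 (exact permutation p = 0.333). The groups did not overlap for either ratio. They overlapped for Scn2a over Scn1a (difference 0.064), for Scn4b over Scn2b (-0.13) and for the summed β over the summed α level (-0.011). Summed β levels were 122 and 101 CPM per kilobase in isolated libraries, against 110.4 and 108 in group-housed libraries, and summed α levels were 71.6 and 67.9 in isolated libraries, against 66.8 and 68.9 in group-housed libraries. Adjusted over the 10 shares and ratios, the smallest exact permutation p was 0.556.

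Other sodium channel genes were examined beside them. Of 10 such genes, which include those of the sodium leak channel complex, 7 were tested and 0 passed the edgeR test, and none had an unadjusted p below 0.05. Their fold changes were positive for 4 and negative for 3, with a median of 0.089 on the log2 scale. Nalcn, the pore of the sodium leak channel that sets resting excitability, measured 210.4 and 207 CPM in isolated libraries, against 194 and 198 CPM in group-housed libraries (log2 fold change 0.089, SE 0.061, edgeR adjusted p = 0.996). The gene of its large auxiliary protein, Unc80, measured 435 and 367 CPM in isolated libraries, against 401 and 420 CPM in group-housed libraries. Scn7a, an atypical channel gene, was low, at 4.99 and 8.23 CPM in isolated libraries, against 5.12 and 5.87 CPM in group-housed libraries. The muscle channel Scn4a and the sensory neuron channels Scn10a and Scn11a were not tested and had 0 to 2 counts in any library, at or under the floor of 3 counts.

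Partners of the channel at the axon initial segment and along the axon were also tested. Of 16 genes 0 passed the edgeR test and 1 had an unadjusted p below 0.05, where 5.09% of all tested genes did. Fold changes were positive for 10 of them and negative for 6, with a median of 0.031 on the log2 scale. Bace1, the protease that cleaves β subunits, measured 124 and 126 CPM in isolated libraries, against 137 and 141 CPM in group-housed libraries, a log2 fold change of -0.15 (SE 0.059, edgeR adjusted p = 0.912). Its exons overlap those of 3 genes on the opposite strand, so its counts are uncertain. Fgf14, an intracellular fibroblast growth factor that binds the α subunit tail, measured 44.7 and 43.9 CPM in isolated libraries, against 39.6 and 41.0 CPM in group-housed libraries. Its relative Fgf12 measured 90.3 and 78.4 CPM in isolated libraries, against 90.6 and 93.7 CPM in group-housed libraries. The log2 fold changes were 0.14 for Fgf14 and -0.13 for Fgf12, each with an edgeR adjusted p = 0.979, and Fgf14 overlaps an antisense gene. The most abundant partners per kilobase were Sptan1 (an axonal spectrin), the ubiquitin ligase gene Nedd4 and the adhesion gene Cntn1, with log2 fold changes of 0.045, 0.040 and -0.078.

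Genes whose profile over the 4 libraries came closest to a subunit gene were sought for the pair with the widest range, Scn3a (0.30 on the log2 scale) and Scn2b (0.30). The measure was the root mean square distance between log2 CPM profiles centred on their own means, over 10777 other genes with a mean of at least 10 CPM. For Scn3a the nearest were Me3 (a mitochondrial malic enzyme gene, distance 0.0036), Tab1 (a kinase-binding adaptor gene, 0.0101) and Zfp871 (0.0110). Me3 measured 22.3 and 22.9 CPM in isolated libraries, against 18.6 and 20.5 CPM in group-housed libraries. For Scn2b near profiles were Castor2 (distance 0.0058) and Ndst3 (a heparan sulfate-modifying enzyme gene, 0.0058). With only 4 libraries many genes lie close, 168 within 0.05 of Scn3a and 289 within 0.05 of Scn2b, so these neighbours are a description of 4 values each.

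The libraries held 26428152 and 25985591 counts in the isolated and 20897605 and 25640860 in the group-housed groups. Defining genes of the lateral habenula were present, with Gpr151, an orphan receptor gene of habenular neurons, at 426 and 426 CPM in isolated libraries, against 397 and 352 CPM in group-housed libraries. All 10 lateral habenula markers were detected and their median log2 fold change was 0.056, with 6 positive and 4 negative. The next by level, Pcdh10 and Htr2c, were among the negative ones. Pcdh10 measured 289 and 244 CPM in isolated, against 297 and 280 CPM in group-housed libraries. Htr2c measured 253 and 214 CPM in isolated, against 261 and 242 CPM in group-housed libraries. In the edgeR test 4 of the 10 had an unadjusted p below 0.05, all higher, where 5.09% of all tested genes met that threshold. Markers of neighbouring tissue were detected in every library too. Of 12 thalamus markers 9 lay lower in both isolated libraries than in both group-housed ones, where 16.3% of all tested genes did. The 12 markers summed to 1565 and 1341 CPM in isolated, against 1645 and 1758 CPM in group-housed libraries. All 10 oligodendrocyte markers had lower means, summing to 10135 and 11873 CPM in isolated, against 13342 and 12327 CPM in group-housed libraries. All 6 ependymal markers had higher means, with isolated replicate 2 apart at a summed 127 CPM, beside 64.6 CPM in isolated replicate 1 and 64.4 and 59.0 CPM in group-housed libraries. Median log2 fold changes of the other marker lists were 0.35 for hippocampus and cortex, 0.42 for inhibitory neurons, -0.039 for pan-neuronal genes, -0.11 for oligodendrocyte precursors, -0.12 for astrocytes, -0.15 for microglia, -0.72 for choroid plexus and 0.031 for endothelium. In the choroid plexus list group-housed replicate 2 stood apart, with summed levels of 48.0 and 61.0 CPM in isolated, against 26.6 and 136 CPM in group-housed libraries. In the inhibitory list isolated replicate 1 stood highest and isolated replicate 2 lowest, with median centred log2 levels of 0.32 and -0.28 in isolated, against 0.031 and -0.070 in group-housed libraries. The 8 subunit genes summed to 1516 and 1370 CPM in isolated libraries, against 1396 and 1413 CPM in group-housed libraries. Whether these differences in tissue makeup bear on the subunit genes was not tested.

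**Figure D5:**
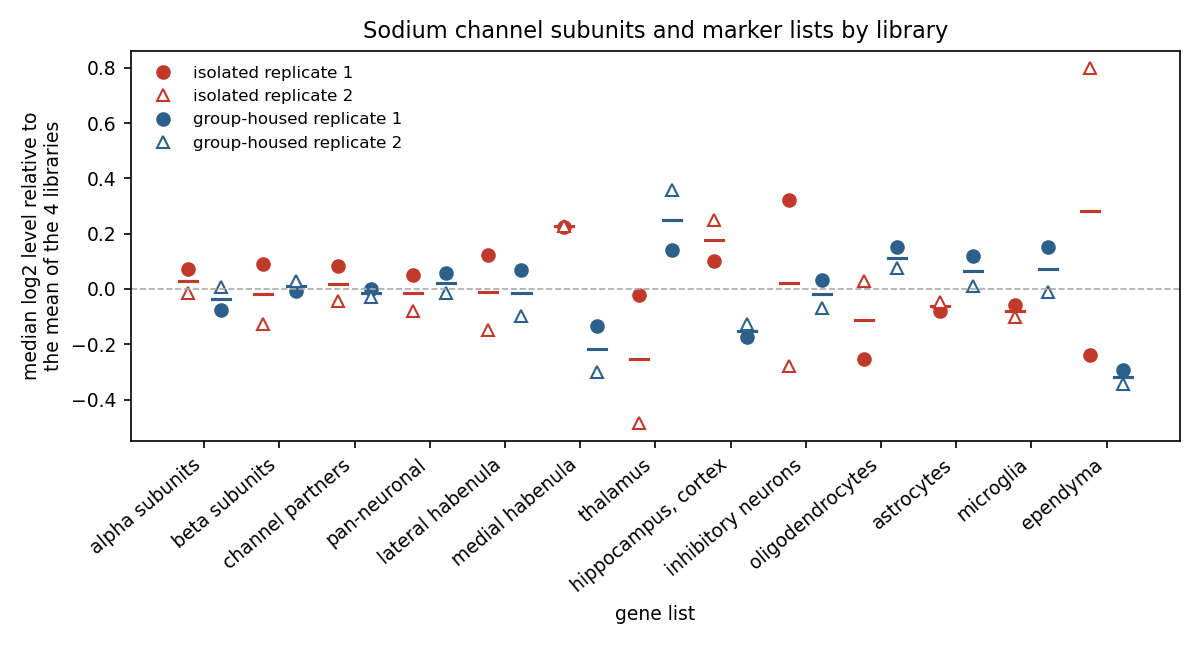
Median log2 level of the genes of each list, with the gene's own mean subtracted, isolated in red to the left of group-housed in blue. The α and β subunit medians run from -0.12 (β, isolated replicate 2) to 0.092 (β, isolated replicate 1). Medial habenula medians stand at 0.23 and 0.23 in isolated, against -0.13 and -0.30 in group-housed libraries, and the ependymal median at 0.80 in isolated replicate 2.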

How the data were processed

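Poly(A) RNA of the lateral habenula was sequenced in 4 libraries, made per the labels' protocols with Trizol and a stranded mRNA kit (Illumina TruSeq). The authors deposited raw read counts per Ensembl gene, which were used for every test. Per the submitters' processing notes the build was GRCm38, and HTSeq, CASAVA, edgeR and TopHat2 2.1.1 were used, with no role named for any of them. The authors also deposited a normalised signal per library, each count times a constant of that library (0.0393 and 0.0387 for isolated, 0.0499 and 0.0400 for group-housed libraries), which served only as an alternative scaling. Symbols, positions and exon lengths came from GENCODE M21, which named 53274 of 53465 identifiers.

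Genes passing edgeR's default low-count filter (17528) entered a comparison in R 4.3.3 by the quasi-likelihood test of edgeR 4.0.16 (TMM scaling, glmQLFit and glmQLFTest, no covariate, 2-sided, Benjamini-Hochberg threshold 0.05). The fit was tested on simulated data in which every gene had the same coefficient of variation, unlike the real genes. That test checked the code and does not bear on the results for the subunit genes. In the real data the common coefficient of variation was 7.20%, and residual degrees of freedom were 2. The test adds prior degrees of freedom borrowed from the other genes (median 6.55). SE is the log2 fold change over the square root of F. Intervals are 95% from the t distribution with residual and prior degrees of freedom together. With the residual degrees of freedom alone they would be wider. CPM use TMM-scaled totals. Counts ranged from 20897605 to 26428152 per library, so that 3 counts, taken as the floor, were 0.113 to 0.146 CPM, covering counting error only. Alternatives were edgeR with size factors of DESeq2 1.42.0, other filters, DESeq2, edgeR's exact test, limma-voom 3.58.1, a replicate block, scaling to pan-neuronal markers and leaving out each library.

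All subunit genes are named. Of the lists of other channel and partner genes, the 3 most abundant per kilobase and the 3 of largest change were eligible, and of a marker list up to 3 by mean CPM. Scn4a, Scn10a and Scn11a are named beside them, and some genes and sequences are not reported here. Members and lists were chosen with earlier results of these data known. The authors' scaling was chosen after seeing the data.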

Additional observations from a re-analysis of the deposited data

How the results depend on the processing

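Under all 12 alternative tests 0 of the 8 subunit genes were called. The number of genes called in the whole table moved from 2 to 15 with no filter on low counts, 52 with DESeq2, 82 with edgeR's exact test and 1 to 221 when a library was left out (221 without isolated replicate 1, 1 without either group-housed replicate), and the cause was not tested. Each fit without a library has 1 residual degree of freedom and assumes the lone library to vary like the other group, so its calls also reflect the smaller design. With the replicate number of the titles as a block it was 64, again with 0 subunit genes. The labels do not say that the numbers pair the libraries, and same-numbered libraries deviated together with a correlation of only 0.14 across genes. Scn1a, Scn3a and Scn8a kept their direction in all 13 alternatives each, with leave-one-out log2 fold changes of -0.10 to -0.032 for Scn1a (nearest 0 without isolated replicate 2), 0.15 to 0.27 for Scn3a and 0.028 to 0.15 for Scn8a (nearest 0 without isolated replicate 1). The smallest edgeR adjusted p of Scn3a was 0.232. The near-zero value of Scn2a changed sign to 0.0038 at a mean of at least 5 CPM, to 0.0034 with the authors' scaling and to 0.035 relative to the pan-neuronal markers. Leaving out a library gave -0.078 to 0.072 for Scn2a, -0.039 to 0.23 for Scn9a, -0.10 to 0.20 for Scn2b, -0.087 to 0.094 for Scn3b and -0.19 to 0.024 for Scn4b, so the direction of these 5 depended on single libraries. Leaving out a library moved the share differences to -2.96 to -1.03 percentage points for Scn1a, -1.66 to -0.0995 for Scn2a, 1.31 to 2.67 for Scn3a, 0.404 to 0.952 for Scn8a and -0.1995 to 0.607 for Scn9a. The log2 ratio differences ranged from 0.017 to 0.11 for Scn2a over Scn1a, 0.096 to 0.21 for Scn8a over Scn1a, 0.12 to 0.31 for Scn3a over Scn2a, -0.22 to -0.035 for Scn4b over Scn2b and -0.10 to 0.082 for β over α. The Scn9a share and the β over α ratio thus changed sign with single libraries. The spread within each pair was set against the counting error of the library with the lowest count. For each of the 8 genes that library was group-housed replicate 1. The spread exceeded this error in both groups, except in the isolated pair for Scn3a (1.83%, against 1.98%). Isolated libraries held more counts of each gene, so their own counting error was smaller. The exception therefore does not place Scn3a below the counting error of the isolated pair. Some margins were small, as for Scn9a in the isolated pair (4.55%, against a counting error of 3.52% in group-housed replicate 1). A spread of 2 libraries is itself uncertain, and the part of depth was not tested.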
